A study of Mus musculus with 12 samples.

Results

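Cytoplasmic ribosomal protein genes were examined in mouse liver. Members were all protein-coding genes whose symbol begins with Rpl or Rps followed by a digit, together with Rplp0, Rplp1, Rplp2 and Rpsa. Kinases of the Rps6k family, predicted gene models and pseudogenes were not taken. This name rule found 86 of the 46078 genes in the count table. Of these, 46 encode proteins of the large ribosomal subunit and 31 proteins of the small subunit. A further 8 are paralogs of a subunit gene (Rpl3l, Rpl7l1, Rpl10l, Rpl22l1, Rpl36al, Rpl39l, Rps27l and Rps27rt). The last, Rps19bp1, encodes a protein that binds Rps19 and is not a subunit. Fau and Rack1 also encode ribosomal proteins, but their names do not follow the rule, so they are given separately.

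Liver was taken from male C57BL/6 mice (C57BL/6J in the study's methods) aged 21 weeks with diet-induced obesity, all fed a high fat diet. VSG mice had a vertical sleeve gastrectomy. Sham-WM mice had sham surgery followed by food restriction to match the weight of the VSG mice, and Sham-Ad lib mice had sham surgery and ate freely. By the study's methods, mice of all groups were deprived of food for some hours before liver was taken. Each group had 4 mice with 1 library each (3F, 4F, 6F and 10F in Sham-Ad lib, 2F, 9F, 15F and 16F in Sham-WM, and 1F, 8F, 11F and 18F in VSG), and the count of poly(A) RNA reads on genes ranged from 15122520 to 19384076 per library. The comparisons ask whether liver transcripts differ between VSG and sham surgery with free feeding, and between food restriction and free feeding after sham surgery. The last compares VSG with sham surgery and food restriction at matched weight, so that both operation and food restriction differ.

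Libraries were matched to mice by animal number, which appears both in the library name and in the sample title. The description field of the labels disagrees, since it pairs titles with other animals' libraries, and the comparisons were therefore repeated with the groups it implies. The running number after the letter S in the library names forms 1 block for each group, and anything that followed it cannot be told apart from treatment. Library 11F stood apart by the lowest total and the lowest normalisation factor (0.879, against 0.946 to 1.04 in the other 11). All 12 hepatocyte markers examined had counts in every library.

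Each ribosome carries a single copy of most of these proteins, which are assembled on ribosomal RNA in the nucleolus, and their transcripts are among the most abundant in any cell. The transcripts begin with a run of pyrimidines, the 5′ terminal oligopyrimidine (5′TOP) motif, through which LARP1 and the nutrient-sensing kinase complex mTORC1 control their translation and stability. Hepatocytes spend much of their protein synthesis on secreted plasma proteins, and hepatic ribosome content is known to follow feeding and growth.

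Promoter windows from RefSeq (GRCm38.p6, from 250 bases before to 50 bases after the annotated start) matched 66 of the 86 genes, with 78 windows in all, since a gene with several starts has several. A pyrimidine run was searched for by the letters CTTTC or CTTTT, on the strand of the gene and within 50 bases on each side of the start. It was found in 47 of the 78 windows (60.3%), against 21.8% of 32851 windows of all genes. The stretches below hold a match in 6 of the 10 genes with the largest change among those called between VSG and Sham-WM, in Rps6, the subunit that mTORC1 signalling phosphorylates through S6 kinase, and in the retrocopy Rps27rt. Counted from the annotated start, the match begins at 2 in Rps27, 1 in Rps27rt, 10 in Rps12 and Rpl13a and 3 in Rps6. It begins at -32 in Rpl22, before the start. In genes with several starts it is at -33 or 43 in Rps24 and at -30, 3 or 32 in Rpl35a. A match before a start is not part of the transcript from that start. For the other genes of the 10, a lack of match and a lack of window are not told apart here. Capitals mark the CTTTC or CTTTT match, and each stretch is written on the strand of its gene.
Rps27, chr3:90213630-90213659, minus strand: ccgctttcgctcCTTTCcggcggtgacgac
Rps27rt, chr9:114982722-114982751, minus strand: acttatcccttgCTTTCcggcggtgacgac
Rps12, chr10:23787183-23787212, minus strand: gccaccgccggcCTTTTcccctgccgccgc
Rpl13a, chr7:45128719-45128748, minus strand: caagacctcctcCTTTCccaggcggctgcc
Rpl35a, chr16:33056472-33056501, plus strand: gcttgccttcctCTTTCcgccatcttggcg
Rpl22, chr4:152325682-152325711, plus strand: tctgactcctccCTTTCccgacagccgact
Rps24, chr14:24490708-24490737, plus strand: gtgagcggtcctCTTTTcctcctctccagc
Rps6, chr4:86857348-86857377, minus strand: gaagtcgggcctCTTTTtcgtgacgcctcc

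Rps27 and Rps27rt shared 18 of 18 bases from the match onwards and 4 of the 12 bases before it. CCGGAAG, the core of the motif bound by ETS-family factors, was found on either strand in 34.6% of the windows of ribosomal protein genes and in 8.86% of all windows. TATAAA, the TATA box, was found within 50 bases before the start on the strand of the gene in 1 of the 78 windows and in 2.63% of all windows. These matches describe the letters in the windows and say nothing of binding.

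Levels were compared between genes per length, as TPM, a transcript level scaled to the exonic length of the gene and to the total of the library. The median over the 77 subunit genes was 256 TPM. Rplp1, an acidic protein of the ribosomal stalk, was highest at 1474 TPM over the 12 libraries, followed by Rps2 (916 TPM), Rps3a1 (895 TPM), Rps15 (755 TPM) and Rpl36 (714 TPM). The lowest tested genes were Rpl24 (12.4 TPM), Rps19bp1 (21.9 TPM), Rpl22l1 (25.97 TPM), Rps15a (34.4 TPM) and Rpl7l1 (46.3 TPM). The order depends on the length used, because exonic length counts every annotated exon: Rps15a had 220 CPM (counts scaled to the library total) per kilobase of coding sequence, beside a median of 390 over the subunit genes, and the coding sequence of Rpl41, only 75 bases long, gave it 3048. Rpl24 remained low on that scale at 10.9, and 47.0% of its exon bases also belong to the gene model Gm28037 on the same strand, which had 0 counts in every library. Of the exon bases of Rpl13a, 29.4% overlap Gm45713 on the same strand, with 21 to 53 counts per library. How reads on such shared exon bases were counted is not given in the sources used here. Whether this lowered the value of Rpl24 was not tested, so its low rank may not reflect its transcript level.

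Ribosomal protein genes have many processed pseudogenes, and much of their sequence is shared with other annotated genes. Of the 82 tested genes, 45 shared more than 50% of their 50-base stretches with transcripts of other genes, with a median of 52.6%. Rps27 shared 98.6% of its stretches, Rps12 90.1% and Rpl22 24.5%, whereas Rps19bp1 shared none. How the authors' counting divided such reads is not given in the sources used here. The genes lie on 19 chromosomes, with 4 on the X chromosome, and 30 of them hold 58 genes of small nucleolar RNAs between them.

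The remaining 4 genes, all paralogs, did not pass the filter on low counts. Rpl10l had 0 counts in every library, which allows at most 3 counts in each. Rpl39l had 0 to 2 counts per library, Rps27rt 0 to 3 and Rpl3l 0 to 7. Rpl10l is known from testis and Rpl3l from heart and skeletal muscle.

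The share of all counts that fell on the 86 genes was 1.40% ± 0.106 (SD, n = 4) for Sham-Ad lib mice, 1.49% ± 0.162 for Sham-WM mice and 1.94% ± 0.431 for VSG mice. In Sham-Ad lib the shares were 1.36% in 3F, 1.44% in 4F, 1.281% in 6F and 1.53% in 10F. In Sham-WM they were 1.69% in 2F, 1.55% in 9F, 1.36% in 15F and 1.35% in 16F. In VSG they were 2.19% in 1F, 1.63% in 8F, 2.42% in 11F and 1.53% in 18F. Libraries 1F and 11F lay above all others, and 8F and 18F lay within the range of the 8 sham libraries.

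The 82 tested genes moved together within a library. Measured against the mean of Sham-Ad lib on the log2 scale of normalised CPM, their median deviation was 1.07 in 11F and 0.68 in 1F, but 0.20 in 8F and 0.13 in 18F. In Sham-WM it was 0.22 in 2F, 0.13 in 9F, -0.09 in 15F and -0.05 in 16F, and within Sham-Ad lib it ran from -0.15 in 6F to 0.21 in 10F. All 82 genes lay above every Sham-Ad lib library in 11F and 80 of them in 1F, compared with 34 in 8F, 25 in 18F and 44 in 2F of Sham-WM. Of all tested genes, 37.0% lay above every Sham-Ad lib library in 11F, 32.2% in 1F, 23.9% in 8F, 21.6% in 18F and 26.6% in 2F. The median over all 13054 tested genes stayed between -0.01 and 0.06 in the 12 libraries.

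**Figure D1:**
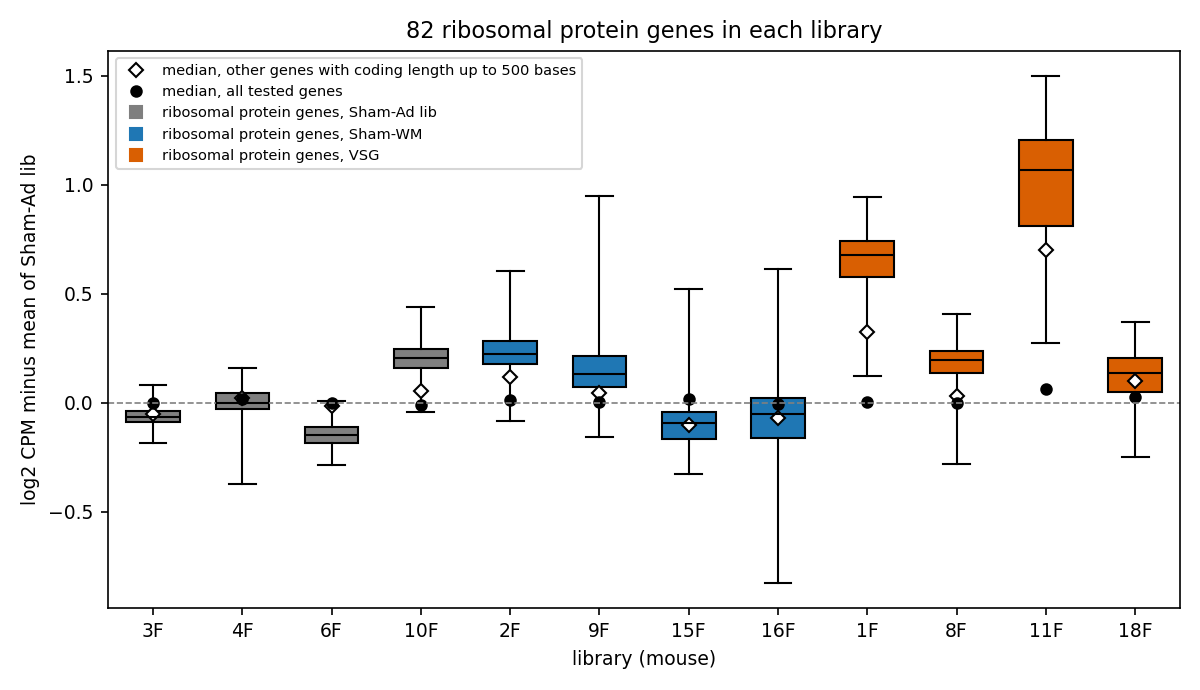
Deviation of the 82 tested ribosomal protein genes from the mean of Sham-Ad lib (log2 CPM, y axis) in each of the 12 libraries (x axis). Boxes span the quartiles with the median as a line and whiskers reach the extremes. Diamonds are the median of 991 other protein-coding genes with a coding length of at most 500 bases and dots that of all tested genes. The VSG libraries 1F and 11F have medians of 0.68 and 1.07, whereas 8F and 18F lie at 0.20 and 0.13, inside the range of the Sham-WM libraries.

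After VSG compared with Sham-Ad lib, no ribosomal protein gene passed the test. By edgeR's quasi-likelihood test with Benjamini-Hochberg adjustment over all tested genes, 0 of 82 had an adjusted p under 0.05, where 0.751% of all genes did. The adjusted p-values of the 82 lay between 0.0585 and 0.920. All 82 estimates were above 0, against 53.2% of all genes, and their median log2 fold change was 0.55, against 0.03 over all genes. At an unadjusted p under 0.05, 75 were higher and 0 lower, where 14.3% of all genes were higher and 9.81% lower. DESeq2 called 31 higher and 0 lower at an adjusted p under 0.05, beside 5.09% of its genes called higher. In 18 genes, all higher, the 4 VSG values lay above the 4 Sham-Ad lib values, as did those of 4.87% of all genes, while 4.34% of all genes lay below without overlap.

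By subunit, the median log2 fold change was 0.51 over the 46 large-subunit genes and 0.61 over the 31 small-subunit genes. The estimates ran from 0.03 for Rpl3 to 0.83 for Rpl13a. Rps27, a zinc-finger protein of the small subunit, had the lowest adjusted p: it had 133 CPM in 3F, 136 in 4F, 123.5 in 6F and 162 in 10F of Sham-Ad lib. The VSG values were 253 CPM in 1F, 177 in 8F, 359 in 11F and 175 in 18F. All 4 VSG libraries lay above the Sham-Ad lib libraries, with 11F and 1F far above 8F and 18F. The log2 fold change was 0.80 (SE 0.197) with an adjusted p of 0.0585 by edgeR, so that it missed the threshold.

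Rpl22, a large-subunit protein that also binds other RNAs and takes part in lymphocyte development, differed less widely within VSG. It had 94.5 CPM in 3F, 95.1 in 4F, 90.7 in 6F and 109.4 in 10F of Sham-Ad lib, compared with 156.5 in 1F, 115.2 in 8F, 170 in 11F and 117 in 18F of VSG. The groups did not overlap, although 8F and 18F were close to 10F. Its log2 fold change was 0.52 (SE 0.134, edgeR adjusted p = 0.0635). Rpl13a, known for translational control in inflammation, Rps3a1 and Rps10 were the other 3 genes with the lowest p, with log2 fold changes of 0.83, 0.53 and 0.64 and edgeR adjusted p-values between 0.0696 and 0.0705.

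At the other end, Rpl3, which shapes the peptidyl transferase centre, had 240 to 301 CPM in Sham-Ad lib and 220 to 320 CPM in VSG. The groups overlapped, and the log2 fold change was 0.03 (SE 0.148, edgeR adjusted p = 0.920). Rps2, with 582 to 694 CPM in Sham-Ad lib and 582 to 935 CPM in VSG, had a log2 fold change of 0.20 (SE 0.165, edgeR adjusted p = 0.482). Rpsa, the laminin receptor protein of the small subunit, had 0.42 (SE 0.203, edgeR adjusted p = 0.219). Rpl3 was chosen after its values were seen.

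The difference between VSG and Sham-Ad lib was smaller without libraries 1F and 11F. Without both, which were left out after their values were seen, the median log2 fold change of the 82 genes was 0.14 and 0 genes were called (3 at an unadjusted p under 0.05). As 0 of all genes were called higher in that fit, the 0 says nothing particular to the ribosomal protein genes. Without 11F alone the median was 0.34 and 0 genes were called (0.377% of all genes higher, with 41 of the 82 at an unadjusted p under 0.05). Without 1F alone the median was 0.52, also with 0 calls, where again 0 of all genes were called higher (60 of the 82 at an unadjusted p under 0.05). Leaving out 18F raised the count of called genes to 51 (5.53% of all genes were then called higher), and leaving out 8F raised it to 4 (0.804%). With no filter on low counts 6 were called higher (1.8%), and with 2 factors of unwanted variation taken from the residuals (RUVr) 76 (13%). With 2 factors taken from the replicates (RUVs) 0 were called (0.0536%), 17 had an unadjusted p under 0.05, and the median was 0.18. The count of genes whose groups did not overlap became 67 without 10F (16.6% of all genes in either direction) and 32 without 18F (18.2%).

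**Figure D2:**
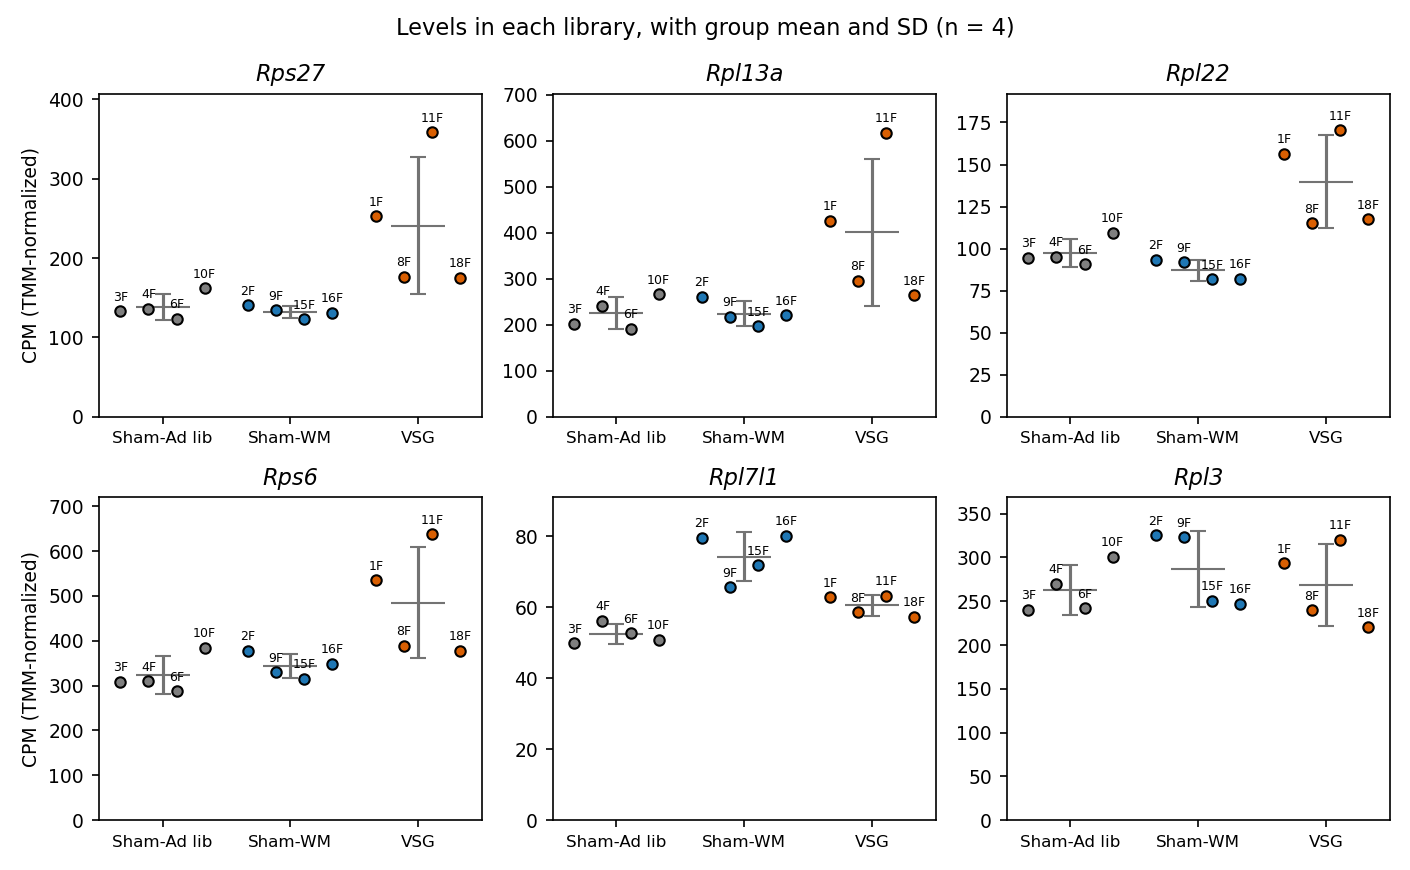
Normalised CPM (y axis, from 0) of 6 genes in each library, labelled by mouse, with the group mean and SD (n = 4) as grey bars. In Rps27, Rpl13a, Rpl22 and Rps6 the VSG libraries 11F and 1F are the highest of the 12, Rpl7l1 is highest in the 4 Sham-WM libraries, and Rpl3 overlaps across the groups, with 220 to 320 CPM in VSG.

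After Sham-WM compared with Sham-Ad lib, the subunit genes were not detectably different, and a single paralog rose. The median log2 fold change over the 82 genes was 0.05, against 0.00 over all genes, and 65 of the 82 estimates were above 0, against 50.1%. EdgeR's test called 1 of 82 higher and 0 lower, where 6.99% of all genes were called, 3.53% higher and 3.45% lower, and DESeq2 also called 1 (5.26% higher). At an unadjusted p under 0.05, 2 were higher and 0 lower (11.1% and 10.5% of all genes). Values of 2 genes, both higher, did not overlap between the groups, beside 9.17% of all genes higher and 8.4% lower.

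The gene called was Rpl7l1, a paralog of Rpl7 that acts in the assembly of the large subunit. It had 49.8 CPM in 3F, 56.1 in 4F, 52.6 in 6F and 50.8 in 10F of Sham-Ad lib, compared with 79.5 in 2F, 65.5 in 9F, 71.7 in 15F and 80.1 in 16F of Sham-WM. Every Sham-WM value was above every Sham-Ad lib value, with a log2 fold change of 0.50 (SE 0.093, edgeR adjusted p = 0.00701). The VSG values, 57.3 to 63.2 CPM, lay above the Sham-Ad lib values and below the Sham-WM values. Rpl7l1 remained called without any single library, with log2 fold changes of 0.47 to 0.56.

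Rps19bp1 was the second gene whose groups did not overlap, with 7.5 to 9.0 CPM in Sham-Ad lib and 9.4 to 11.8 CPM in Sham-WM, but its log2 fold change of 0.34 (SE 0.154) had an edgeR adjusted p of 0.219. Rpl8 with 0.21 and Rpl36al with 0.19 on the log2 scale came next by p, with edgeR adjusted p-values of 0.371 and 0.518. The count of genes without overlap was 4 without 6F (21.2% of all genes in either direction) and 7 without 10F (21.4%). With 2 RUVs factors 6 genes were called higher (6.66% of all genes).

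Between VSG and Sham-WM, 30 ribosomal protein genes were higher after VSG and 1 was lower. All 30 were subunit genes, 17 of the 31 of the small subunit and 13 of the 46 of the large subunit. EdgeR called 26.9% of all genes in this comparison, 15% higher and 11.9% lower. At an unadjusted p under 0.05, 63 of the 82 were higher and 1 lower (22% and 18.3% of all genes), and 79 estimates were above 0 (52.3%). DESeq2 called 44 higher (14.9%). Over the 82 genes the median log2 fold change was 0.51, against 0.03 over all genes, with 0.57 over the small-subunit and 0.48 over the large-subunit genes. Values of 12 genes were higher without overlap, while 14.3% of all genes were, so that by this measure the ribosomal protein genes were close to the share of all genes. The 1 gene lower without overlap was Rpl7l1 (11.9% of all genes).

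Rps27 had the highest log2 fold change of the 82. Its Sham-WM values were 141 CPM in 2F, 134 in 9F, 123 in 15F and 131 in 16F. All lay below the 4 VSG values given above (175 to 359 CPM), and its log2 fold change was 0.87 (SE 0.197, edgeR adjusted p = 0.00768). Rps12, at the head of the small subunit, had 175 CPM in 2F, 157 in 9F, 125 in 15F and 132 in 16F of Sham-WM, compared with 294 in 1F, 191 in 8F, 414.5 in 11F and 160 in 18F of VSG. Here 18F lay below 2F, so the groups overlapped; the log2 fold change was 0.85 (SE 0.247, edgeR adjusted p = 0.0246). Rpl13a had 196 to 261.2 CPM in Sham-WM and 264.5 to 617 CPM in VSG, and the groups did not overlap, although 2F and 18F nearly met (log2 fold change 0.84, SE 0.228, edgeR adjusted p = 0.0176).

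The other genes among the 10 with the largest change of those called had log2 fold changes of 0.75 (Rpl35a), 0.74 (Rpl17), 0.68 (Rpl22), 0.66 (Rps18), 0.65 (Rps14), 0.63 (Rps24) and 0.63 (Rps20), with edgeR adjusted p-values between 0.00371 and 0.0482. Rpl24, at 0.74, was not called (edgeR adjusted p = 0.0591). Rpl35a and Rps14 are known from Diamond-Blackfan anaemia and from the 5q- syndrome of bone marrow, in which a lack of a ribosomal protein impairs red cell formation. Rpl22 had the lowest adjusted p of the 82 and did not overlap between the groups, with 81.7 to 93.3 CPM in Sham-WM and 115.2 to 170 CPM in VSG. Of the stalk proteins, which recruit elongation factors, Rplp0 passed the test (0.49, SE 0.167, edgeR adjusted p = 0.0441), while Rplp1 (0.55) and Rplp2 (0.42) did not, with edgeR adjusted p-values of 0.0775 and 0.163. Rps6 was higher, by 0.50 (SE 0.167, edgeR adjusted p = 0.0416), with 315 to 378.2 CPM in Sham-WM and 378.1 to 637 CPM in VSG, so that the groups just met. Rpl7l1 was the gene that fell, by 0.30 on the log2 scale (SE 0.093, edgeR adjusted p = 0.0321), with no overlap between the groups.

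Single libraries moved these counts widely. Against 30 genes called higher with all libraries, the number was 62 without 18F (16.2% of all genes) and 51 without 8F (13.9%), but 6 without 11F (13.2%) and 5 without 1F (10.5%). Leaving out a Sham-WM library gave 20 when 2F was left out (12.3%), 11 for 9F (11.6%), 3 for 15F (9.73%) and 4 for 16F (9.33%). Leaving out a Sham-Ad lib library, which does not enter the difference itself but the shared fit, gave 17 when 3F was left out (13.7%), 19 for 4F (14.9%), 19 for 6F (14%) and 25 for 10F (13.9%). Without both 1F and 11F, 2 genes were called higher (6.73%), Rps27 at 0.40 and Rpl22 at 0.40 on the log2 scale, 1 was called lower, and the median was 0.09. Without 11F the median was 0.32. The 13 genes without overlap became 29 without 2F (32% of all genes in either direction), 20 without 8F (31.7%) and 29 without 18F (34%).

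Other settings moved the counts too. In a fit of only the groups compared, 8 were called higher (12.4% of all genes). With 2 RUVr factors 72 were called higher (21.8%), and with 2 RUVs factors 0 were called by edgeR (2.1% of all genes higher), 7 had an unadjusted p under 0.05 and the median was -0.01. Under the groups of the description field, 0 of 82 were called in each of the 3 comparisons, as were 0 of all genes, with 0, 1 and 0 of the 82 at an unadjusted p under 0.05 and medians of -0.10 for VSG against Sham-Ad lib, -0.30 for Sham-WM against Sham-Ad lib and 0.22 for VSG against Sham-WM.

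**Figure D3:**
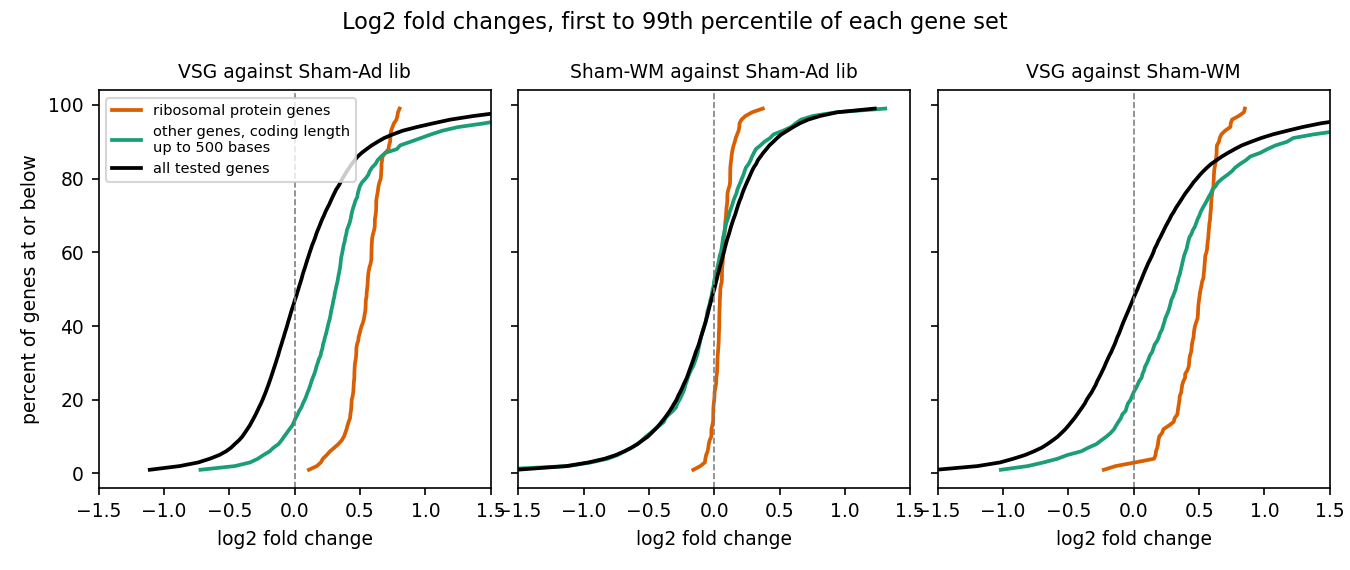
Percent of genes at or below each log2 fold change (x axis), from the first to the 99th percentile, for the 82 ribosomal protein genes, 991 other protein-coding genes with a coding length of at most 500 bases and all 13054 tested genes. The curve of the ribosomal protein genes is centred at 0.55 for VSG against Sham-Ad lib, at 0.05 for Sham-WM against Sham-Ad lib and at 0.51 for VSG against Sham-WM, and all genes at 0.03, 0.00 and 0.03.

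Ribosomal protein genes are short, and short genes as a whole were higher in the same libraries. The median coding length of the 82 genes was 453 bases, compared with 1386 bases over 12280 tested protein-coding genes, and 51 of the 82 were at or under 500 bases. The 991 other protein-coding genes of that length had a median deviation of 0.70 in 11F and 0.32 in 1F, but 0.03 in 8F and 0.10 in 18F. Those over 500 bases had -0.02 in 11F and -0.03 in 1F. For VSG against Sham-Ad lib, the median log2 fold change of other genes fell with coding length, from 0.37 over 238 genes of at most 300 bases to -0.26 over 518 genes above 5000 bases.

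The same order was seen among the ribosomal protein genes. The 41 shorter ones, up to 453 bases, had a median of 0.60 and the 41 longer ones 0.47 for VSG against Sham-Ad lib, and 0.57 and 0.46 for VSG against Sham-WM. Across the 82 genes, which share their libraries, Spearman's rho between coding length and log2 fold change was -0.44 in the first comparison and -0.41 in the other. For other genes of at most 500 bases the median was 0.31 and 0.32. Of these 991 genes, 847 had estimates above 0 in VSG against Sham-Ad lib. There 319 were higher and 12 lower at an unadjusted p under 0.05, and edgeR called 16 higher and 2 lower. In VSG against Sham-WM 772 were above 0, and edgeR called 240 higher and 31 lower. With trends on exonic length and GC content removed within each library, the median of the 82 genes was 0.33 for VSG against Sham-Ad lib, with 1 gene called (Rps27, log2 fold change 0.46, edgeR adjusted p = 0.0486, 0.958% of all genes higher). For VSG against Sham-WM it was 0.24, with 16 called higher (14.2%) and 2 lower. Exonic length is not coding length: Rpl12, for example, has 3598 exonic and 495 coding bases. These offsets therefore do not show what would remain without the trend on coding length, whose removal was not tested.

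**Figure D4:**
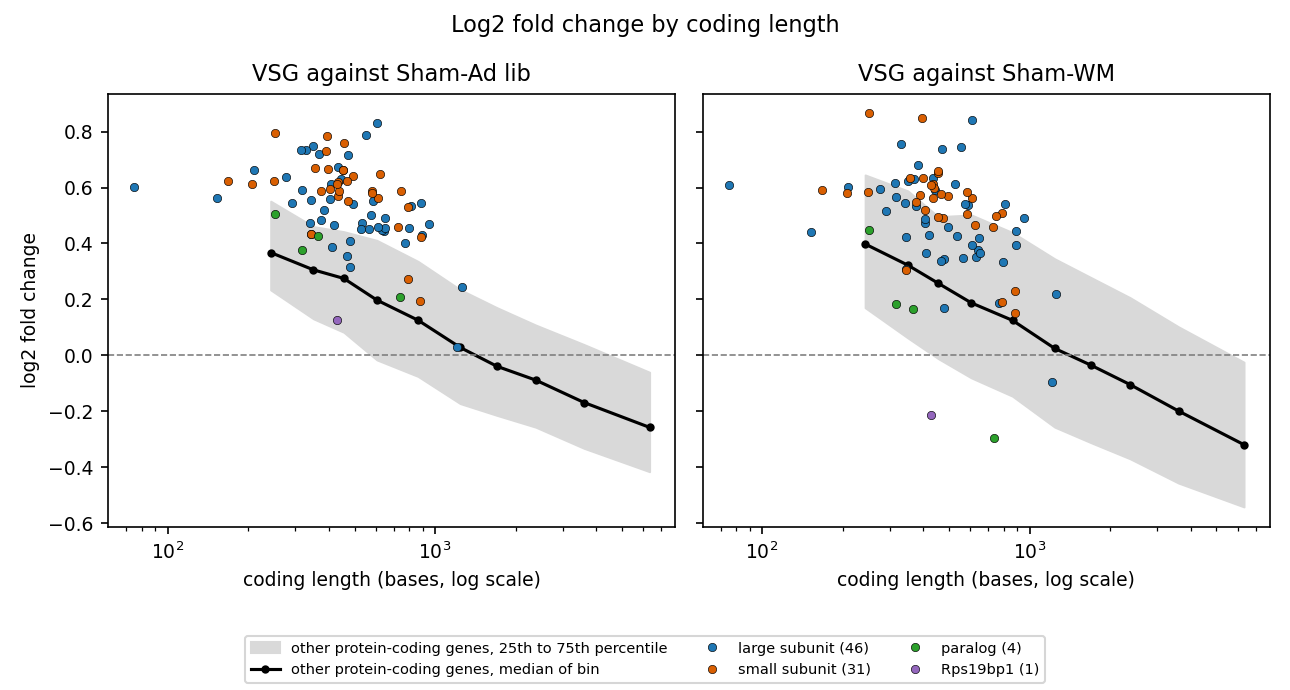
Log2 fold change (y axis) against coding length (bases, log scale, x axis) for the 82 ribosomal protein genes by role, with the median (line) and the quartiles (shading) of other protein-coding genes in bins of coding length. In VSG against Sham-Ad lib the line falls from 0.37 to -0.26, and the median of the ribosomal protein genes is 0.55. Rpl7l1, at -0.30, is the lowest point in VSG against Sham-WM.

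Some markers of immune cells also rose with VSG, and such cells carry ribosomal protein transcripts of their own. In bulk liver, more cells of a type and more RNA per cell cannot be told apart. Of all genes, edgeR called 0.467% higher in VSG than in Sham-Ad lib and 15% higher than in Sham-WM. Of 8 Kupffer cell markers, 2 were higher after VSG than in Sham-Ad lib by edgeR and 8 higher than in Sham-WM, and their summed level was 146 to 467 CPM in Sham-Ad lib, 130 to 224 CPM in Sham-WM and 477 to 1329 CPM in VSG. Of 5 tested neutrophil markers of 7, 3 and 5 were higher. The sum of the 7 was 1.3 to 16.3 CPM in Sham-Ad lib, 2.7 to 3.7 CPM in Sham-WM, and 639 in 1F, 258 in 8F, 102 in 11F and 22.3 in 18F, with the defining marker Ly6g at 0 in all 8 sham libraries and in 11F. The summed B and plasma cell markers were 12.1 to 35.2 CPM in the sham libraries and 57.3 to 205 CPM in VSG, and 2 of 7 tested markers were higher than in Sham-Ad lib. T and NK cell markers summed to 3.5 to 8.9 CPM in the sham libraries and 7.6 to 16.1 CPM in VSG. Of 6 tested, 4 were higher than in Sham-WM and 0 were called against Sham-Ad lib by edgeR (4 higher at an unadjusted p under 0.05). Proliferation markers summed to 32.9 to 44.1 CPM in the sham libraries and 38.5 to 76.7 CPM in VSG. Here too 4 of 6 tested were higher than in Sham-WM and 0 were called against Sham-Ad lib by edgeR (4 higher at an unadjusted p under 0.05). The sum of 12 hepatocyte markers was 96468 CPM in 1F, 95113 in 8F, 102691 in 11F and 141991 in 18F, compared with 120811 to 170882 in the sham libraries. Of these 12, 0 were called against Sham-Ad lib by edgeR (1 lower at an unadjusted p under 0.05), with a median log2 fold change of -0.14. Against Sham-WM 0 were called higher and 2 lower (11.9% of all genes lower). There 6 estimates were above 0 and 6 below, with a median of -0.04. The sum of 6 red blood cell markers was 370 CPM in 1F, 141.5 in 8F, 733 in 11F and 258 in 18F, compared with 152 to 591 CPM in the sham libraries, and 0 of the 6 were called in any comparison by edgeR, with 1 at an unadjusted p under 0.05 in each comparison with Sham-WM. The part of these cells in the values of ribosomal protein genes was not tested.

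Paralog pairs were compared by their ratio of CPM per kilobase of coding sequence. In 12 two-sided exact permutation tests, over 4 pairs and 3 comparisons, none passed after Benjamini-Hochberg adjustment (lowest adjusted p = 0.0686), and 0.0286 is the smallest unadjusted p that 4 against 4 libraries allow. Rpl7 over Rpl7l1 was 4.22 to 5.43 in Sham-Ad lib, 2.95 to 3.91 in Sham-WM and 4.84 to 7.55 in VSG, so that Sham-WM lay below both other groups without overlap. Rpl36a over Rpl36al, a paralog that encodes a nearly identical protein, was 0.527 to 0.556 in Sham-Ad lib, 0.435 to 0.554 in Sham-WM and 0.569 to 0.685 in VSG, which lay above both other groups. Rps27 over Rps27l, a paralog induced by p53, was 1.18 to 1.40 in Sham-Ad lib, 1.08 to 1.29 in Sham-WM and 1.396 to 1.79 in VSG, where only 11F lay within the range of Sham-Ad lib. Rpl22 over Rpl22l1 ranged from 2.63 to 8.07 within Sham-WM alone and overlapped across all groups.

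Of the ribosomal proteins with other names, Fau, which is made as a fusion with a ubiquitin-like protein, was higher in VSG than in Sham-WM. It had 132 to 148 CPM in Sham-Ad lib, 129 to 147 CPM in Sham-WM and 150 to 290 CPM in VSG, with the VSG values above all sham values (VSG against Sham-WM log2 fold change 0.56, SE 0.166, edgeR adjusted p = 0.0268). Rack1, a scaffold protein at the head of the small subunit, had 0.43 against Sham-Ad lib and 0.29 against Sham-WM, with edgeR adjusted p-values of 0.121 and 0.173.

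Other 5′TOP transcripts, which encode elongation factors, poly(A)-binding protein and further parts of the translation machinery, were compared as a list of 22 genes, all tested. In VSG against Sham-Ad lib 0 were called by edgeR, with a median log2 fold change of 0.28. At an unadjusted p under 0.05, 13 were higher (14.3% of all genes). In VSG against Sham-WM 12 were higher and 0 lower, with a median of 0.35 (15% and 11.9% of all genes). Npm1, a nucleolar chaperone of ribosome assembly, had 128 to 152 CPM in Sham-Ad lib, 127 to 143 CPM in Sham-WM and 167 to 222 CPM in VSG, and was higher than in Sham-WM by 0.54 (SE 0.111, edgeR adjusted p = 0.00461). Pabpc1, the cytoplasmic poly(A)-binding protein, was higher by 0.63 (SE 0.131, edgeR adjusted p = 0.00514). Eif4b, a cofactor of the helicase that unwinds mRNA leaders, fell after Sham-WM by 0.83 (SE 0.149, edgeR adjusted p = 0.00604), with 259 to 336.5 CPM in Sham-Ad lib and 148 to 190 CPM in Sham-WM.

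Among 24 other translation factors, 1 was higher and 5 were lower in VSG than in Sham-WM (15% and 11.9% of all genes). The median was -0.10. Eif4a2, an isoform of that helicase, was the gene that was higher, by 0.95 (SE 0.164, edgeR adjusted p = 0.00200), and Eif4e, the cap-binding protein, was lower by a log2 fold change of -0.34 (SE 0.102, edgeR adjusted p = 0.0261). Gspt1 and Eif4g2 were lower with -0.56 and -0.50. In Sham-WM against Sham-Ad lib, Eif4e rose by 0.47 (SE 0.102, edgeR adjusted p = 0.0164).

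Some genes of ribosome assembly rose in Sham-WM, and 0 of the 77 subunit genes was called there by edgeR (0 at an unadjusted p under 0.05). Of 57 tested genes, 7 were higher and 0 lower in Sham-WM than in Sham-Ad lib (3.53% and 3.45% of all genes). Their median log2 fold change was 0.22. In VSG against Sham-Ad lib 0 were called by edgeR, with a median of 0.04. At an unadjusted p under 0.05, 6 were higher and 3 lower there (14.3% and 9.81% of all genes). Rrp12, which takes part in the export of both subunits, had 4.0 to 5.9 CPM in Sham-Ad lib, 8.6 to 13.1 CPM in Sham-WM and 4.1 to 6.2 CPM in VSG (Sham-WM against Sham-Ad lib log2 fold change 1.15, SE 0.178, edgeR adjusted p = 0.00268). Utp20 and Tsr1, factors of small-subunit processing, were higher by 0.56 and 0.74, with edgeR adjusted p-values of 0.0104 and 0.0169. Mdn1, the AAA ATPase that remodels large-subunit precursors, had 0.71, with an edgeR adjusted p of 0.0509. In VSG against Sham-WM 8 of the 57 were higher and 10 lower (15% and 11.9% of all genes).

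Of 24 regulators of 5′TOP translation and mTORC1, 1 was lower in VSG than in Sham-Ad lib (0.283% of all genes). In VSG against Sham-WM 2 were higher and 8 lower (15% and 11.9% of all genes). In Sham-WM against Sham-Ad lib 2 were higher and 2 lower (3.53% and 3.45% of all genes). Larp4, an mRNA-binding protein of the La family, was the gene lower in VSG than in Sham-Ad lib, with a log2 fold change of -0.59 (SE 0.115, edgeR adjusted p = 0.0442). Mtor, the kinase itself, had 59.7 to 71.1 CPM in Sham-Ad lib, 38.2 to 45.5 CPM in Sham-WM and 40.7 to 59.1 CPM in VSG, and was lower in Sham-WM by a log2 fold change of -0.64 (SE 0.126, edgeR adjusted p = 0.00980). Eif4ebp1, the translational repressor that mTORC1 inactivates, had 35.2 to 49.4 CPM in Sham-Ad lib, 21.1 to 31.4 CPM in Sham-WM and 46.0 to 62.4 CPM in VSG. It fell after Sham-WM by 0.68 (SE 0.144, edgeR adjusted p = 0.0129) and was 1.08 higher in VSG than in Sham-WM. These are transcript levels, and the activity of the kinase was not measured here.

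The mitochondrial ribosome, whose proteins are encoded by a separate set of nuclear genes, had 77 tested genes. None was called in VSG against Sham-Ad lib by edgeR, and the median log2 fold change was 0.30. At an unadjusted p under 0.05, 29 were higher and 1 lower (14.3% and 9.81% of all genes). In VSG against Sham-WM 7 were higher and 2 lower, with a median of 0.20. These are smaller shares than the 15% higher and 11.9% lower over all genes. Mrps22 was higher in Sham-WM than in Sham-Ad lib by 0.55 (SE 0.101, edgeR adjusted p = 0.00701). In 11F the median deviation of these genes was 0.74 and in 1F 0.27.

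**Figure D5:**
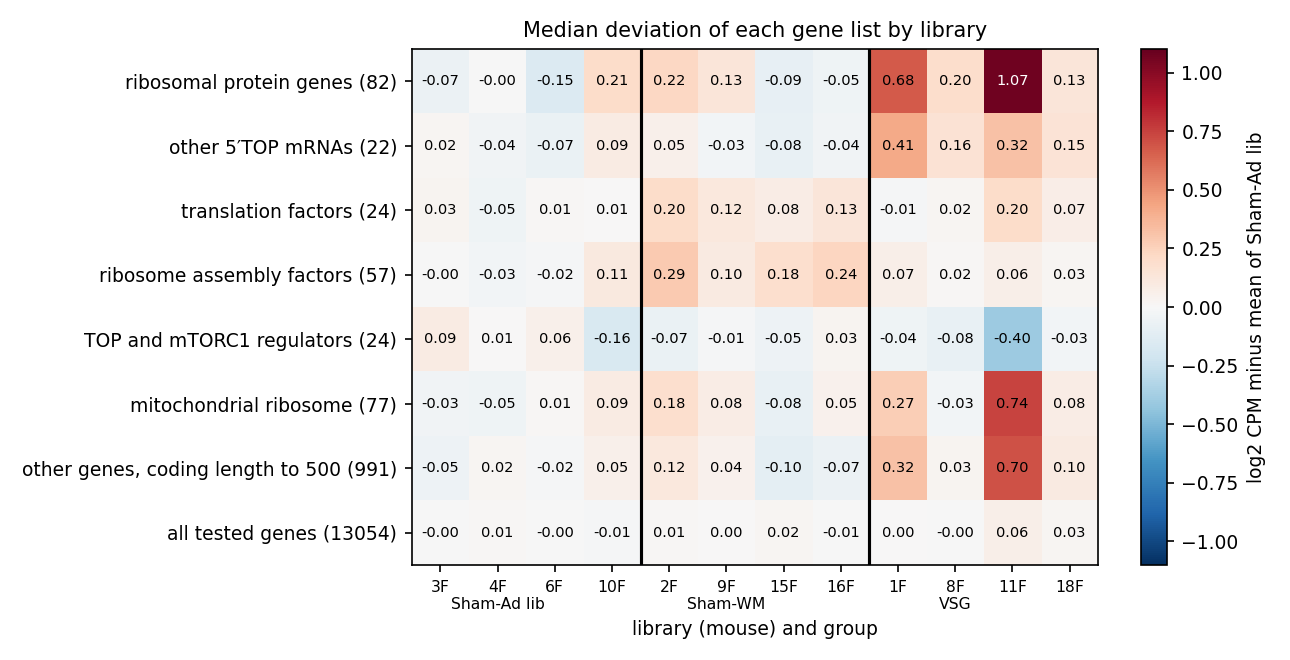
Median deviation from the mean of Sham-Ad lib (log2 CPM, colour and printed value) for 8 gene lists (rows, with the number of tested genes) in each library (columns, grouped by treatment). Ribosomal protein genes reach 1.07 in 11F and 0.68 in 1F, while ribosome assembly factors are at 0.10 to 0.29 in the Sham-WM libraries and at most 0.11 in the others.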

How the data were processed

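Poly(A) RNA of mouse liver was sequenced, and the authors aligned reads to mm10 with TopHat2 2.1.1, counted them per gene with featureCounts and deposited whole-number counts without normalization. The annotation release and strand setting are not given in the sources used here. Symbols came from GENCODE M21, to which 849 of 46078 genes did not match. Genes were kept by filterByExpr (minimum count 10, minimum total 15), leaving 13054. All 12 libraries were fitted together with TMM factors and edgeR's quasi-likelihood test (edgeR 4.0.16, limma 3.58.1, R 4.3.3), with Benjamini-Hochberg adjustment over all genes and a threshold of 0.05. Log2 CPM used a prior count of 2. Each group had 4 separate mice. Reads carried no molecular identifiers, and the limit of 3 counts for a gene at 0 covers counting error alone.

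Alternatives were DESeq2 1.42.0 and its size factors, upper quartile factors, both a looser filter (none) and a stricter one (10 counts or more in each of the 12 libraries), fits of 2 groups, offsets for exonic length and GC content, 2 RUVs or RUVr factors written out from their definitions (the study used RUVSeq without naming the kind), core subunit genes only, the description field's groups, leaving out each library, and leaving out 1F and 11F together, which was chosen after seeing the data. The methods were tested on simulated counts with known changes, drawn separately for each gene. That simulation held no trend with length, no genes that moved together and no library that stood apart. It therefore does not show how the methods perform where those features are present. Gene lists, members and tests were chosen with earlier results of these data known.

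Genes were named by rule: the 10 members with the largest change among those called per comparison, or the 5 with the lowest p where fewer than 5 were called, the stalk genes, Rpsa, Rps6, paralogs and Rps19bp1, the 5 highest and 5 lowest by TPM, Fau and Rack1, and up to 4 of each other list by lowest p. A few genes that the rule names are not reported here.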

Additional observations from a re-analysis of the deposited data

Results flagged for a closer look

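Rpl36al, the paralog of Rpl36a, had 1 library that stood apart within its group. In Sham-Ad lib its level was 166 CPM in 10F, whereas the other 3 libraries lay between 136 and 141 CPM. The gap of 10F to its nearest neighbour was 0.832 of the range of the group, just over Dixon's critical value for 4 samples. This was 1 flag among 78 groups tested, and chance flags about 1 in 20 groups. The same library had the highest median of the ribosomal protein genes within Sham-Ad lib, at 0.21 on the log2 scale.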

How the results depend on the processing

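The count of called genes in VSG against Sham-Ad lib, 0 with all libraries, was 31 with DESeq2, 6 with no filter on low counts, 1 with length and GC offsets and 76 with RUVr, and 0 to 51 leaving out 1 library. Its median of 0.55 was 0.18 with RUVs, -0.10 with the description field's groups and 0.14 without 1F and 11F, and its 18 genes without overlap were 0 with the description field and 15 to 67 leaving out 1 library. In Sham-WM against Sham-Ad lib the 1 call was 0 among core subunit genes, 6 with RUVs and 0 with the description field, where the median was -0.30, and the 2 genes without overlap were 6 with length and GC offsets, 0 with the description field and 2 to 7 leaving out 1 library. In VSG against Sham-WM the 31 calls were 8 in the fit of 2 groups, 18 with length and GC offsets, 0 with RUVs, 73 with RUVr, 0 with the description field, 3 without 1F and 11F, and 3 to 62 leaving out 1 library. Its median of 0.51 was -0.0073 with RUVs, 0.22 with the description field and 0.089 without 1F and 11F, and its 13 genes without overlap were 0 with the description field and 11 to 29 leaving out 1 library. Signs turned with the description field for Rps27 (-0.14), Rpl13a (-0.17), Rps10 (-0.11) and Rps6 (-0.076) in VSG against Sham-Ad lib and for Rpl7l1 (-0.19), Rps19bp1 (-0.37), Rpl8 (-0.14) and Rpl36al (-0.29) in Sham-WM against Sham-Ad lib. They turned with RUVs for Rps20 (-0.00094) and Rplp0 (-0.016) in VSG against Sham-WM. Of the other values of named genes, 413 kept their direction and side of the threshold, 103 lost the call and 26 gained it. The cause was not tested. The 4 untested paralogs had too few counts to pass the filter. Limited depth and absence of their transcripts were not told apart. The tested genes shared a median of 52.6% of their stretches with transcripts of other genes, not of pseudogenes alone. Spearman's rho between this shared percent and log2 fold change was 0.08 for VSG against Sham-Ad lib. It was 0.05 for Sham-WM against Sham-Ad lib and -0.002 for VSG against Sham-WM. Whether shared reads affected the values of the subunit genes was not tested.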
